A study of Mus musculus with 25 samples.

Results

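Scn2b, Scn3b and Scn4b encode the sodium channel subunits beta2, beta3 and beta4. They were picked by their gene symbols and make up 3 of the 24421 genes in each count file, and all 3 had enough counts to be tested. The other beta subunit gene of the family was not analysed here. Hippocampal RNA was sequenced in 25 libraries from mice with 1 disrupted copy of Scn1a (written Scn1a+/-), a model of Dravet syndrome, and from wild-type mice. The mice were on the 129S6/SvEvTac background (here 129S6) or were [129S6/SvEvTac x C57BL/6]F1 hybrids (here F1), and were sampled at postnatal day 14 (P14) or 24 (P24). The P14 libraries numbered 3 of Scn1a+/- and 2 of wild-type 129S6 mice, and 3 of each genotype in F1. In P24 129S6, 3 libraries were labelled Scn1a+/- and 3 wild type. The P24 F1 mice gave 3 wild-type libraries, 2 libraries of Scn1a+/- mice without seizures and 3 libraries of Scn1a+/- mice with seizures. No other transgene or agent is named in the labels. Each library was a pool of hippocampi, from 3 to 4 mice in the seizure group and from 12 to 16 mice in all other groups. Whether the pools of a group came from separate litters or days is not in the labels. The p-values here thus reflect how much these pools varied, over all 9 groups together and not within the compared groups alone.

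Voltage-gated sodium channels are built around a large alpha subunit that forms the pore, and the beta subunits are small single-pass membrane proteins with an immunoglobulin-like outer domain. They tune the gating and the surface level of the channel, and they also act as cell adhesion molecules. The beta2 and beta4 subunits are joined to the alpha subunit by a disulfide bond, whereas beta3 binds without one. The beta4 subunit is further known for its cytoplasmic tail, which can block the open pore and so shape the resurgent sodium current of fast-firing neurons. Scn1a itself encodes the alpha subunit Nav1.1, which is most important in inhibitory interneurons.

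The 3 genes lie on mouse chromosome 9. In the assembly GRCm38.p6, which is the assembly of mm10, Scn2b spans 45117876 to 45130070 and Scn4b spans 45138624 to 45154155, both on the plus strand. They are next to each other, with a gap of 8553 bases and 0 annotated genes in it. Scn3b spans 40269216 to 40291618 on the same chromosome, 4.83 Mb from Scn2b. The start regions of Scn2b and Scn4b are shown because these neighbours, although they share a location and an orientation, start in very different sequence. Each runs from 250 bases before to 50 bases after the annotated start, 5′ to 3′ on the plus strand, from RefSeq (GRCm38.p6), with every CpG dinucleotide in capitals. The Scn2b window is chr9:45117626-45117925 and the Scn4b window is chr9:45138374-45138673.
Scn2b: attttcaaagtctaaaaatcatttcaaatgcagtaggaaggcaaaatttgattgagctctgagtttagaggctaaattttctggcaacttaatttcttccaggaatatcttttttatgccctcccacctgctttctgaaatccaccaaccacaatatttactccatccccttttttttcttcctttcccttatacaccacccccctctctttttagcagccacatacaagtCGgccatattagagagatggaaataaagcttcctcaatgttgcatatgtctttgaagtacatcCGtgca
Scn4b: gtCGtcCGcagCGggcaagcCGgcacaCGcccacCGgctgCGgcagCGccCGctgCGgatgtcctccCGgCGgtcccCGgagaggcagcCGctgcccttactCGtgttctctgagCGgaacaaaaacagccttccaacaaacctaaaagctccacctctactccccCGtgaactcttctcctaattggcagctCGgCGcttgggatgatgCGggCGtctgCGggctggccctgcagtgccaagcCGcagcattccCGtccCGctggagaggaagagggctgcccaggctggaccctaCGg
The Scn2b window was 38.3% G or C and held 2 CpG dinucleotides. The Scn4b window was 66.3% G or C and held 26 of them. Over 27025 mouse promoter windows of the same length the medians were 52.7% and 7, which placed the GC content of Scn2b at the 7.9th percentile and that of Scn4b at the 84.7th. Scn2b thus had a CpG-poor start and Scn4b a CpG-rich one. Several short motifs were searched on both strands. The E-box (CANNTG), present in 72.1% of all windows, occurred 3 times in the Scn2b window. It was the only searched motif found in either window. The windows held no cAMP response element (TGACGTCA, in 1.88% of all windows) and not its core alone (TGACG, contained in the longer element, 21.0%). The AP-1 element (TGANTCA, 7.93%), the GC box (GGGCGG, 35.9%), the TATA box (TATAAA, 14.2%) and the letters TTANNTAA (6.08%) were likewise not found in them.

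The depth ran from 7436442 to 25520050 counts per library, and levels are given as CPM, for which the effective size of each library was used. Scn2b was read with 1510 to 5493 counts per library, Scn3b with 2705 to 9432 and Scn4b with 111 to 563, so Scn4b carries the widest counting error. Hippocampal markers were present in every library, with the dentate granule cell gene Prox1 at 87.2 to 125 CPM and the CA1 gene Fibcd1 at 53.7 to 165 CPM. The targeted gene Scn1a was lower in Scn1a+/- than in wild-type libraries without overlap in P14 129S6 (92.8 to 102 against 107 and 115 CPM) and P14 F1 (90.4 to 92.7 against 101 to 106). The same held for P24 F1 without seizures (92.9 and 115 against 124 to 130). In P24 129S6 it went the other way, at 135 to 144 CPM in the libraries labelled Scn1a+/- and 109 to 111 in those labelled wild type. Titles and characteristics of these 6 libraries disagree in genotype with their file names, and also with the matching 6 columns of the deposited normalized table. Groups follow the titles here, and any direction of a genotype difference in P24 129S6 turns around if the file names are right. By the file names Scn1a was lower in Scn1a+/- in P24 129S6 too, as in the other strain and age groups. Ranked by p in the comparison as labelled, Scn1a stood at 1 among the 15912 tested genes (log2 fold change 0.35, edgeR adjusted p = 0.414). The 3 seizure libraries also stood apart from one another. Their chi-square per degree of freedom over genes was 18.3 to 40.2 between pairs, against 2.42 to 8.59 between pairs of libraries in the other groups. The spread of each gene was estimated over all 9 groups together. Standard errors, intervals and p-values of the seizure comparisons can therefore understate how much the seizure libraries varied.

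The clearest difference was between mice with seizures and all other mice. In P24 F1 Scn1a+/- mice with seizures all 3 beta subunit genes were lower than in wild type, Scn4b by the most (log2 fold change -1.35 ± 0.13, SE), followed by Scn3b (-0.61 ± 0.09) and Scn2b (-0.45 ± 0.08). In this comparison 22.5% of the 15912 tested genes were called, 1966 higher and 1613 lower, and the median over all tested genes was 0.01, against -0.61 over the 3 beta genes. A gene was called when its Benjamini-Hochberg adjusted p, from edgeR's quasi-likelihood test over all tested genes, was under 0.05. Ranked by p among all tested genes, Scn4b stood at 124, Scn3b at 411 and Scn2b at 703. All 3 were also called in each of 5 alternative settings. The highest adjusted p over these edgeR and DESeq2 fits was 0.00107 for Scn4b, 0.0146 for Scn3b and 0.0285 for Scn2b.

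Scn4b, whose product shapes resurgent current, was measured at 6.11, 8.18 and 10.5 CPM in the 3 seizure libraries. The P24 F1 wild-type libraries had 22.5, 22.3 and 18.3 CPM, and the P24 F1 Scn1a+/- libraries without seizures had 17.0 and 15.5. All 3 seizure libraries were below all 5 others of that age and strain. The share of all tested genes whose libraries separate in this way was not counted for this or any other comparison. Separations without overlap are therefore given as descriptions throughout. The fall against wild type was 60.9% (2.56-fold lower, 95% interval of the log2 fold change -1.62 to -1.09, edgeR adjusted p = 9.37e-10). Leaving out each library in turn gave log2 fold changes of -1.58 to -1.18, all called.

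Scn3b, the gene of the beta subunit that binds without a disulfide bond, stood at 276, 186 and 243 CPM in the seizure libraries. In wild type it was at 355, 363 and 357 CPM and in Scn1a+/- without seizures at 364 and 314. Again no seizure library reached any of the other P24 F1 libraries, while the wild-type libraries varied with an SD of only 4.39 CPM (n = 3). Against wild type Scn3b fell by 34.5% (log2 fold change -0.61, 95% interval -0.79 to -0.44, edgeR adjusted p = 2.08e-06), and the leave-one-out values ran from -0.75 to -0.47.

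Scn2b, which encodes the disulfide-linked beta2 subunit, was at 167, 134 and 181 CPM in the seizure libraries, at 225, 223 and 211 in wild type and at 244 and 205 in Scn1a+/- without seizures. The groups did not overlap, and the second seizure library was the lowest of all 25 for both Scn2b and Scn3b but not for Scn4b, for which the first one was lowest. Scn2b fell by 26.9% against wild type (log2 fold change -0.45, 95% interval -0.61 to -0.29, edgeR adjusted p = 4.19e-05), with leave-one-out values of -0.56 to -0.34.

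Against the Scn1a+/- libraries without seizures, which share the genotype, strain and age, the same direction was measured for the 3 genes. Pool size was not matched, at 3 to 4 mice with seizures against 12 to 16 without. Seizures and pool size cannot be told apart in any comparison with the seizure group. This comparison shares the seizure libraries with the one against wild type and is no independent evidence. The log2 fold change was -0.98 ± 0.15 for Scn4b (edgeR adjusted p = 1.22e-05), -0.53 ± 0.10 for Scn3b (0.000123) and -0.48 ± 0.09 for Scn2b (0.000121), with 15.7% of all tested genes called. When only these 2 groups, 5 libraries in all, were fitted, 4.05% of genes were called. Scn4b was still called there (-0.98, edgeR adjusted p = 0.0115), but Scn3b (-0.53, adjusted p = 0.1003) and Scn2b (-0.48, adjusted p = 0.109) were not.

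The seizure values were also low beside the whole series. For Scn4b the other 22 libraries, of both ages, strains and genotypes, ran from 12.3 to 23.9 CPM with a median of 17.6, and for Scn3b from 314 to 407 with a median of 372. None of them reached down to the highest seizure library for either gene. For Scn2b the other 22 ran from 177 to 244 CPM with a median of 209, and 1 of them, P14 129S6 Scn1a+/- replicate 3 at 177, lay below the highest seizure library at 181. Set against P14 F1 Scn1a+/- mice, 10 days younger, the seizure group was lower by a log2 fold change of -0.73 ± 0.14 for Scn4b (edgeR adjusted p = 0.000174), -0.71 ± 0.09 for Scn3b (8.60e-08) and -0.35 ± 0.08 for Scn2b (0.000815), with 30.6% of tested genes called.

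**Figure D1:**
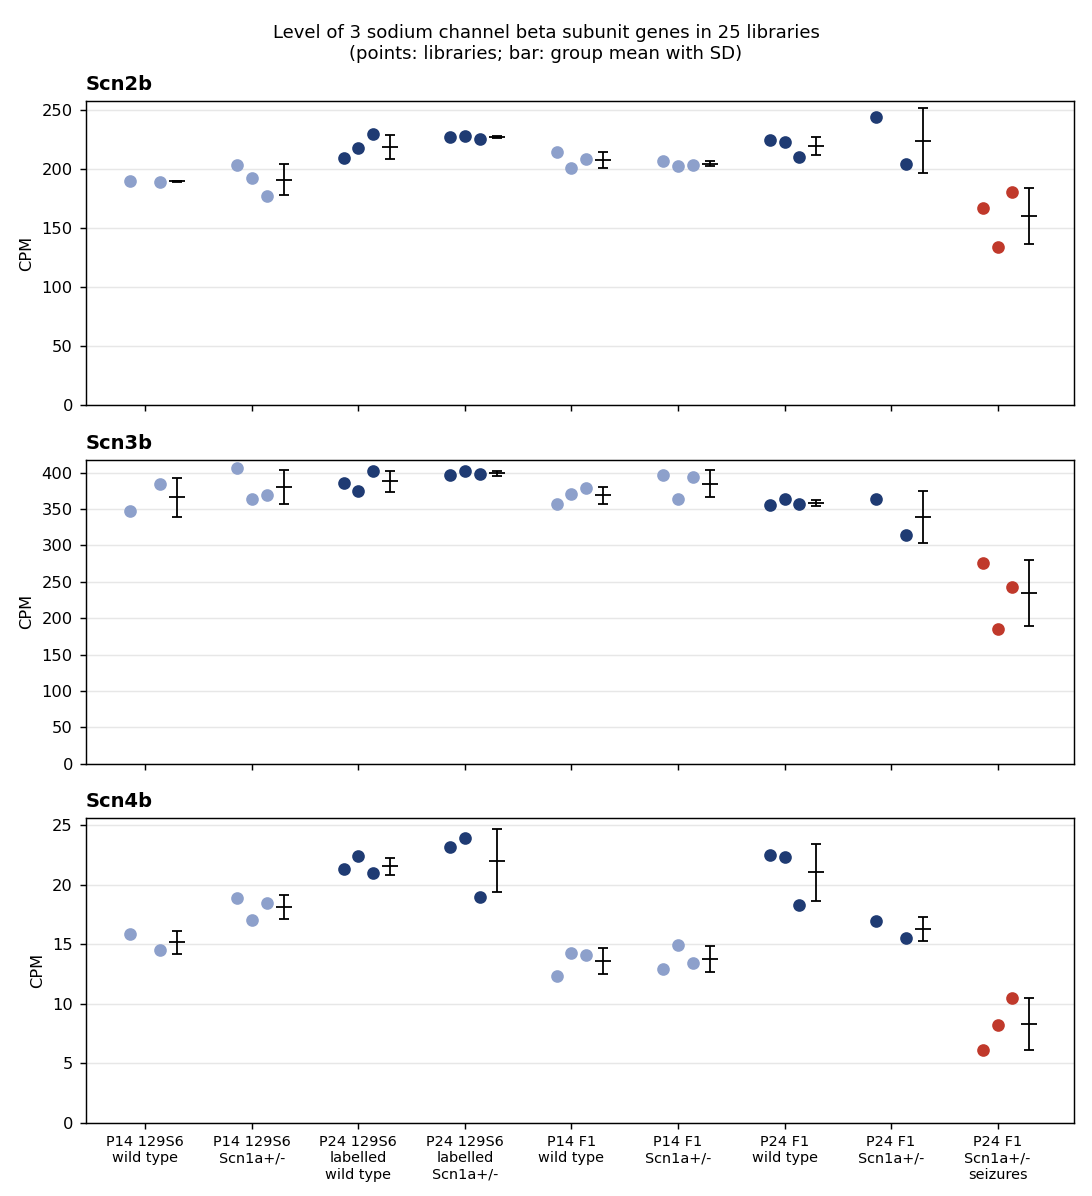
Level of Scn2b, Scn3b and Scn4b in CPM (vertical axes, starting at 0) in each of the 25 libraries (points), by group (horizontal axis), with the group mean and SD beside the points. P14 libraries are light blue, P24 libraries dark blue and seizure libraries red. The seizure libraries lie at the bottom of each panel, at 134 to 181 CPM for Scn2b, 186 to 276 for Scn3b and 6.11 to 10.5 for Scn4b, and the P24 points of Scn4b other than these and the P24 F1 Scn1a+/- ones lie between 18.3 and 23.9 CPM.

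These are bulk samples, in which fewer cells of a type and less RNA per cell cannot be told apart. Members of cell type marker lists were called in the same comparison, where 22.5% of all tested genes were called. Their part in the fall of the beta genes was not tested. Markers that rose or fell are called ones here. Of 8 CA1 pyramidal cell markers, 5 fell and 0 rose against wild type, with a summed level of 745 to 968 CPM in seizure libraries and 1005 to 1145 in wild type. The dentate granule cell list had 7 lower and 2 higher members of 10 (835 to 896 against 998 to 1043 CPM). Of 10 myelin and oligodendrocyte markers, 7 fell and 0 rose, although the sums overlapped (10600 to 16639 against 14552 to 16802 CPM). General neuronal markers did not fall as a list, since 4 of 11 rose and 1 fell. Of 12 interneuron markers 3 rose and 0 fell (798 to 1146 against 818 to 966 CPM). Scn4b is well known from the striatum, and of 10 striatal markers 2 rose and 2 fell, with a sum of 268 to 323 CPM in seizure libraries and 298 to 319 in wild type. Among 10 members of each other list, 4 astrocyte markers rose and 5 fell, 3 microglial markers rose and 0 fell, 1 thalamic and habenular marker rose and 5 fell, and 1 neocortical marker rose and 4 fell. Of the choroid plexus list 1 rose and 1 fell, and of the leptomeningeal and vascular list 3 rose and 1 fell. The called shares of the interneuron, microglial and choroid plexus lists were near that of all tested genes. No marker of these 12 lists was at 0 in any library.

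Between P14 and P24 the beta subunit genes did not move together. Scn4b was higher at P24 in both strains, Scn2b was higher in 129S6, and Scn3b did not pass the test in either. Both genotypes were averaged here and the seizure libraries were not used, so the uncertain genotype labels of P24 129S6 do not enter them. In F1, P14 libraries had Scn4b at 12.3, 14.3 and 14.1 CPM in wild type and 12.9, 14.9 and 13.4 in Scn1a+/-. All 5 P24 F1 libraries without seizures, at 15.5 to 22.5 CPM, lay above these. The rise was 1.36-fold (log2 fold change 0.44, 95% interval 0.23 to 0.64, edgeR adjusted p = 0.000704), in a comparison that called 38.4% of all tested genes.

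In 129S6, Scn4b was at 15.8 and 14.5 CPM in P14 wild type and at 18.9, 17.0 and 18.5 in P14 Scn1a+/-. The 6 P24 libraries ran from 19.0 to 23.9 CPM, and the ages did not overlap. Here the rise was 1.31-fold (log2 fold change 0.39, 95% interval 0.20 to 0.59, edgeR adjusted p = 0.00155), with 34.3% of genes called. The difference between the rises in the 2 strains was 0.04 (95% interval -0.24 to 0.33, edgeR adjusted p = 0.966), and in that interaction test 0.00628% of genes, a single gene, were called.

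Scn2b in 129S6 was at 189 and 190 CPM in P14 wild type and at 177, 193 and 204 in P14 Scn1a+/- libraries. The 6 P24 libraries ran from 209 to 230 CPM, again without overlap. This was a 1.17-fold rise (log2 fold change 0.23, 95% interval 0.11 to 0.35, edgeR adjusted p = 0.00263). In F1 the log2 fold change of Scn2b was 0.11 (95% interval -0.01 to 0.22, adjusted p = 0.161) and that of Scn3b was -0.11 (-0.24 to 0.02, adjusted p = 0.178), and neither was called by edgeR. In the fit without the seizure libraries, where 44.9% of genes were called, both passed with the same values (edgeR adjusted p = 0.0322 for Scn2b and 0.0217 for Scn3b). Without P24 F1 Scn1a+/- replicate 2, Scn2b in F1 was also called (log2 fold change 0.17, edgeR adjusted p = 0.0424). Scn3b in 129S6 had a log2 fold change of 0.08 (95% interval -0.05 to 0.21, edgeR adjusted p = 0.385). The strain difference in the age change was -0.12 for Scn2b (edgeR adjusted p = 0.733) and -0.19 for Scn3b (adjusted p = 0.612), so no difference between the strains passed the test.

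Within F1 Scn1a+/- mice alone, P24 without seizures minus P14 gave log2 fold changes of 0.25 for Scn4b (95% interval -0.07 to 0.56, edgeR adjusted p = 0.275), 0.13 for Scn2b (adjusted p = 0.310) and -0.18 for Scn3b (adjusted p = 0.188), none called, while 21.8% of all genes were. Both P24 values of Scn4b in these mice, 17.0 and 15.5 CPM, were above the 3 at P14, which ran from 12.9 to 14.9. Marker lists moved with age as well, and their part in these rises was not tested. The age comparisons over both genotypes, used for the marker counts, called 34.3% of all tested genes in 129S6 and 38.4% in F1. All 10 myelin markers rose in both strains, from sums of 5926 to 8293 CPM at P14 to sums of 13288 to 16802 CPM at P24 without seizures. Of 10 dentate markers 8 rose and 1 fell in 129S6, and 7 rose and 0 fell in F1. Of 10 thalamic and habenular markers 0 rose and 7 fell in 129S6, and 1 rose and 5 fell in F1.

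Genotype without seizures made no called difference to any beta subunit gene. In the fit of all libraries 0% of the 15912 tested genes were called in each of the 4 genotype comparisons by edgeR, and DESeq2 called 0 as well. At an unadjusted p under 0.05 edgeR counted 391 genes in P14 129S6, 724 in P14 F1, 889 in P24 F1 and 471 in P24 129S6. If no gene differed, a share of 0.05 of the 15912 tested genes would be expected under that threshold, so these counts alone do not show genotype differences. For Scn2b and Scn3b the 95% intervals of the log2 fold change lay within -0.28 and 0.25 in all 4 comparisons. In P14 F1 the 3 log2 fold changes were -0.02 for Scn2b, 0.06 for Scn3b and 0.01 for Scn4b. In P24 129S6, as labelled, they were 0.05, 0.04 and 0.02, and by the file names -0.05, -0.04 and -0.02. In P14 129S6 they were 0.01, 0.05 and 0.26, the last with a 95% interval of -0.04 to 0.55 and Scn4b higher in all 3 Scn1a+/- libraries than in both wild-type ones.

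The lowest unadjusted p of a beta subunit gene among the genotype comparisons was that of Scn4b in P24 F1 mice without seizures. Its 2 Scn1a+/- libraries, at 17.0 and 15.5 CPM, lay below the 3 wild-type libraries at 18.3 to 22.5. The log2 fold change was -0.38 ± 0.14 (95% interval -0.66 to -0.09, edgeR adjusted p = 0.833), which is not called. In the fit without the seizure libraries 1.27% of genes were called in this comparison, and Scn4b was not one of them (edgeR adjusted p = 0.0828). The genotype difference at P24 minus that at P14 in F1 was -0.39 for Scn4b (95% interval -0.79 to 0.02, edgeR adjusted p = 0.877), 0.05 for Scn2b and -0.14 for Scn3b. The genotype difference in F1 minus that in 129S6 at P14 was -0.25 for Scn4b, -0.03 for Scn2b and 0.01 for Scn3b. In both of these interaction tests 0% of genes were called.

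Strain differences were small for these genes and did not pass the test in the fit of all libraries. At P14 Scn4b was lower in F1 than in 129S6, at 12.3 to 14.9 against 14.5 to 18.9 CPM, overlapping by 1 F1 library (log2 fold change -0.28 ± 0.10, edgeR adjusted p = 0.142), where 3.7% of all genes were called. Scn2b was 0.12 ± 0.06 (adjusted p = 0.387) and Scn3b 0.02 ± 0.06 (adjusted p = 0.960). At P24 the difference was -0.24 ± 0.09 for Scn4b (adjusted p = 0.131), -0.17 ± 0.06 for Scn3b (adjusted p = 0.108) and -0.01 ± 0.06 for Scn2b (adjusted p = 0.959), with 6.33% of genes called by edgeR. All 5 P24 F1 libraries without seizures, at 314 to 364 CPM, were below all 6 P24 129S6 libraries, at 375 to 403 CPM, for Scn3b. The fit without the seizure libraries called 6.32% of genes at P14 and 13.4% at P24. In it Scn4b at P14 (-0.28, edgeR adjusted p = 0.0298), Scn4b at P24 (-0.23, adjusted p = 0.0358) and Scn3b at P24 (-0.17, adjusted p = 0.00363) were called.

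**Figure D2:**
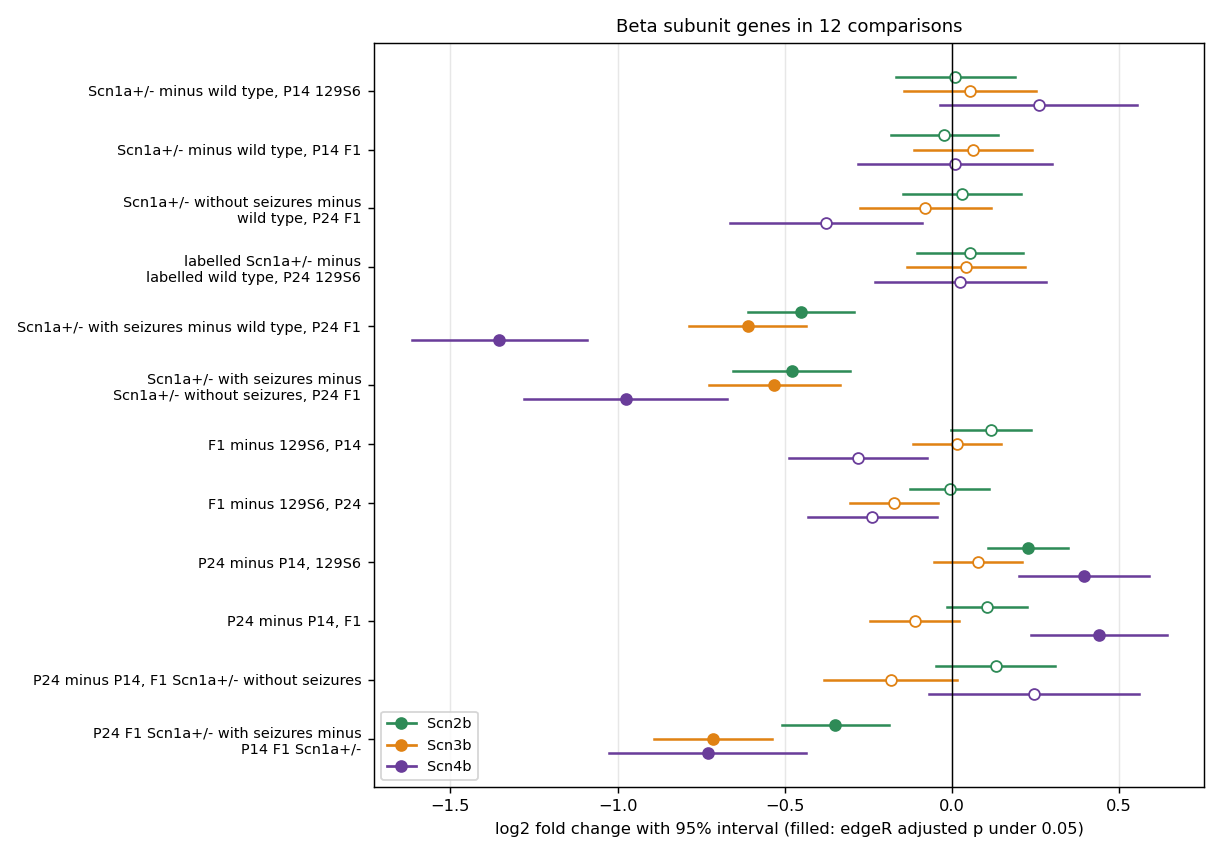
Log2 fold change (horizontal axis) of Scn2b, Scn3b and Scn4b with its 95% interval in each of the 12 comparisons (vertical axis). Filled points have an edgeR adjusted p under 0.05. The comparisons with the seizure group hold all 3 genes left of 0, down to -1.35 for Scn4b, and among the others Scn4b is filled for P24 minus P14 in 129S6 and in F1, and Scn2b for P24 minus P14 in 129S6.

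When the 9 groups were ordered by mean level, most neighbours in that order overlapped. For Scn2b the means ran from 227 ± 1.05 CPM (SD, n = 3, P24 129S6 labelled Scn1a+/-) down to 190 ± 0.641 (n = 2, P14 129S6 wild type) and then 161 ± 23.7 (n = 3) in the seizure group. Each neighbouring pair in that order overlapped except the last. Scn3b went from 399 ± 3.02 CPM (n = 3, P24 129S6 labelled Scn1a+/-) to 339 ± 35.4 (n = 2, P24 F1 Scn1a+/-) with overlap at each step, and then to 235 ± 45.5 (n = 3) in the seizure group without overlap. Scn4b had the widest range. The 3 highest groups were P24 129S6 labelled Scn1a+/- (22.0 ± 2.63 CPM, n = 3), P24 129S6 labelled wild type (21.5 ± 0.726, n = 3) and P24 F1 wild type (21.0 ± 2.39, n = 3). P14 129S6 Scn1a+/- followed at 18.1 ± 0.998, overlapping with the group above it. The P24 F1 Scn1a+/- group without seizures came next at 16.3 ± 1.01 (n = 2), clear of the group above it. Lower still were P14 129S6 wild type (15.1 ± 0.948, n = 2), P14 F1 Scn1a+/- (13.7 ± 1.05, n = 3) and P14 F1 wild type (13.6 ± 1.08, n = 3). The seizure group ended the order at 8.26 ± 2.18 (n = 3), without overlap.

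Per kilobase of exonic length, Scn2b and Scn3b were expressed at like levels and Scn4b far lower. This rests on the lengths used, 4656 bases for Scn2b, 7165 for Scn3b and 5082 for Scn4b. They join all annotated exons of a gene, and the annotation used for counting is not known. Levels per kb of different genes are thus approximate. In CPM, P24 F1 wild type had 220 for Scn2b and 358 for Scn3b. In P24 F1 wild type the levels were 47.2 CPM per kb for Scn2b, 50.02 for Scn3b and 4.14 for Scn4b. The same scale gave 11.0 for Scn1a, 24.9 for Scn2a (Nav1.2, written Scn2a1 in the files), 28.7 for Scn8a (Nav1.6) and 6.03 for Scn3a (Nav1.3). In the seizure group Scn2b was at 34.5, Scn3b at 32.7 and Scn4b at 1.62 CPM per kb. The summed level of the 3 beta genes was 101 ± 2.41 CPM per kb in P24 F1 wild type (SD, n = 3) and 68.9 ± 10.8 in the seizure group (n = 3), and the share of Scn4b in that sum was 4.08% ± 0.373 and 2.40% ± 0.703.

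Ratios within a library do not depend on its scaling and show the unequal changes directly. The log2 ratio of Scn2b to Scn4b per kb was 4.90, 4.16 and 4.23 in the seizure libraries, whereas wild-type P24 F1 libraries had 3.45 to 3.65, so the groups did not overlap. In P24 F1 Scn1a+/- without seizures it was 3.85 and 3.97. The F1 libraries at P14 stood at 3.89 to 4.25, above the P24 wild-type values and overlapping with the lower seizure values, and the P24 129S6 libraries at 3.38 to 3.70. The log2 ratio of Scn2b to Scn3b moved less, from -0.43 in the lowest P14 129S6 library to 0.20 in the highest seizure library. In the seizure group it ran from -0.10 to 0.20 and overlapped with wild type, at -0.14 to -0.04.

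**Figure D3:**
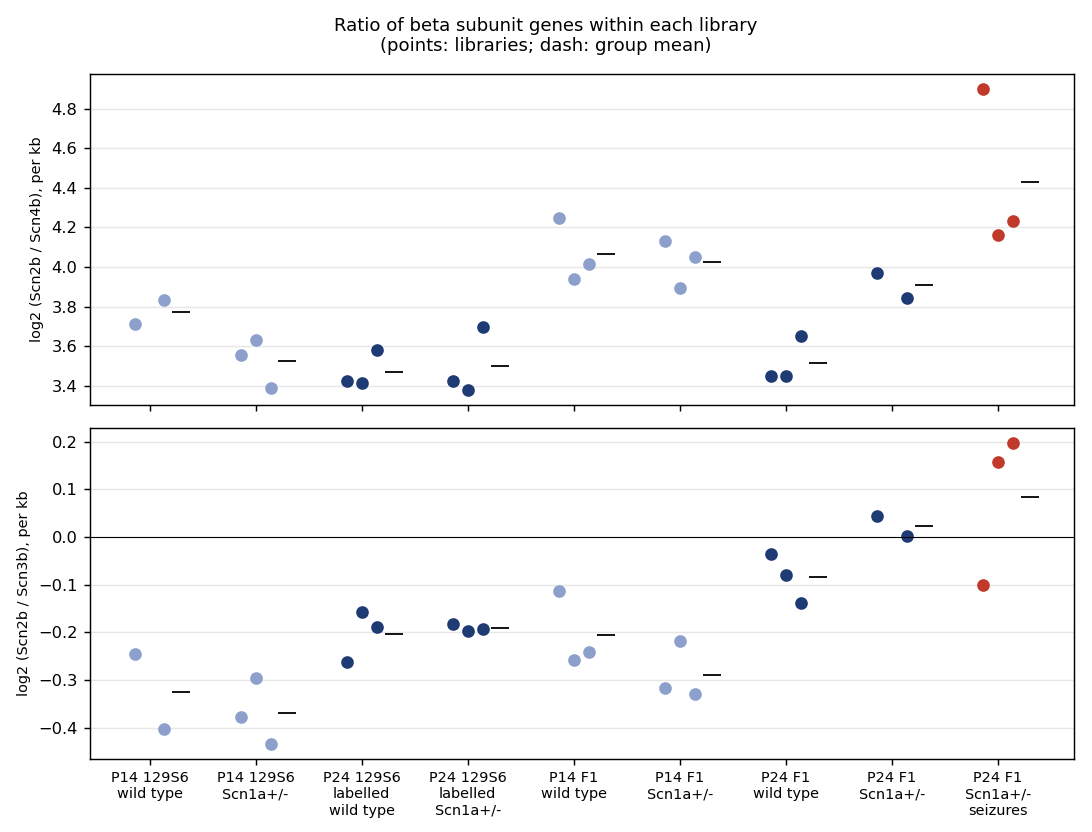
Log2 ratio of Scn2b to Scn4b (upper panel) and of Scn2b to Scn3b (lower panel), both per kb of exonic length (vertical axes), in each library (points) by group (horizontal axis), with the group mean as a dash. P14 libraries are light blue, P24 libraries dark blue and seizure libraries red. In the upper panel the seizure libraries lie at 4.16 to 4.90 and the P24 F1 wild-type libraries at 3.45 to 3.65, and in the lower panel these 2 groups overlap.

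Of the genes of the alpha subunits, which the beta subunits bind, and of the sodium leak channel Nalcn, 9 in the files were analysed here and 6 of these had enough counts to be tested. Not every alpha subunit gene is among them, so the counts do not describe the whole family. Against wild type 5 of the 6 fell and 0 rose in the seizure group, where 22.5% of all tested genes were called. Scn1a fell by 0.67 ± 0.07 on the log2 scale (edgeR adjusted p = 2.67e-08), and it is also the disrupted gene. Scn9a, the gene of Nav1.7, fell by 0.94 ± 0.19 (adjusted p = 0.000338), from 6.98 to 3.59 CPM on average. Nalcn fell by 0.37 ± 0.09 (edgeR adjusted p = 0.00369), Scn3a by 0.26 ± 0.07 and Scn2a by 0.33 ± 0.10. Scn8a, at 398 against 453 CPM, was not called (log2 fold change -0.19, edgeR adjusted p = 0.108). These 6 log2 fold changes thus ran from -0.94 to -0.19 beside -1.35 for Scn4b, and the difference between genes was not tested. Against Scn1a+/- without seizures, 3 of the 6 fell and 0 rose, where 15.7% of all tested genes were called.

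Partners at the axon initial segment and the node of Ranvier include the ankyrin and spectrin scaffold to which the channels are tethered. The list used here also holds adhesion, paranodal and extracellular matrix genes. Of 13 such genes, 5 fell and 1 rose against wild type in the seizure group, with a median of -0.17 and with 22.5% of all tested genes called. Tnc, an extracellular matrix gene, rose from 18.4 to 39.5 CPM (log2 fold change 1.10 ± 0.12, edgeR adjusted p = 1.33e-08). Cntnap1, the gene of the paranodal protein Caspr, fell from 286 to 189 CPM (log2 fold change -0.60 ± 0.08, edgeR adjusted p = 9.85e-07), and Cntnap2 fell by 0.48 ± 0.09. The spectrin gene Sptbn1 fell by 0.26 ± 0.06, the contactin gene Cntn2 by 0.27 ± 0.08 and Tnr, a matrix relative of Tnc, by 0.31 ± 0.09. The scaffold gene Ank3, which encodes ankyrin G, had a log2 fold change of -0.04 (adjusted p = 0.649) and the adhesion gene Nfasc one of -0.07 (adjusted p = 0.561), and neither was called by edgeR. Of the 4 FGF homologous factors, which bind the tail of the alpha subunit, 1 was called, Fgf14 at -0.21 ± 0.07, a share near that of all tested genes.

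Beta subunits are cut by the beta-secretase and alpha-secretase enzymes and then by the gamma-secretase complex. Of 10 genes of these enzymes, 1 fell and 0 rose in the seizure group against wild type, where 22.5% of all tested genes were called. The one that fell was the gamma-secretase subunit gene Aph1b (log2 fold change -0.27 ± 0.08, edgeR adjusted p = 0.0133). Bace1, the main beta-secretase of neurons, was at 126 CPM in the seizure group and 133 in wild type (log2 fold change -0.08, edgeR adjusted p = 0.537).

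Between P14 and P24 the called members of these lists differed in direction. The shares of all tested genes called were 34.3% in 129S6 and 38.4% in F1. Scn1a (log2 fold change 0.25 in each strain) and Scn8a (0.22 in 129S6, 0.20 in F1) were the 2 of the 6 genes of the alpha list that rose from P14 to P24, and 0 fell, a share near that of all genes. Among the 13 axonal partners, 3 rose and 4 fell in 129S6, and 4 rose and 5 fell in F1. Cntn2 and Cntnap1 rose in F1 by 0.64 ± 0.06 and 0.57 ± 0.06, and Tnc, which had the smallest adjusted p of the list, fell by 1.23 ± 0.09 on the log2 scale. Of the 4 FGF homologous factors, 0 rose, and 1 fell in 129S6 and 2 in F1. Fgf13 fell in both strains, by 0.49 ± 0.04 and 0.58 ± 0.05. Of the 10 cleaving enzyme genes, 0 rose, and 1 fell in 129S6 and 2 in F1. These lists were chosen with earlier results of these data known and are given as descriptions.

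**Figure D4:**
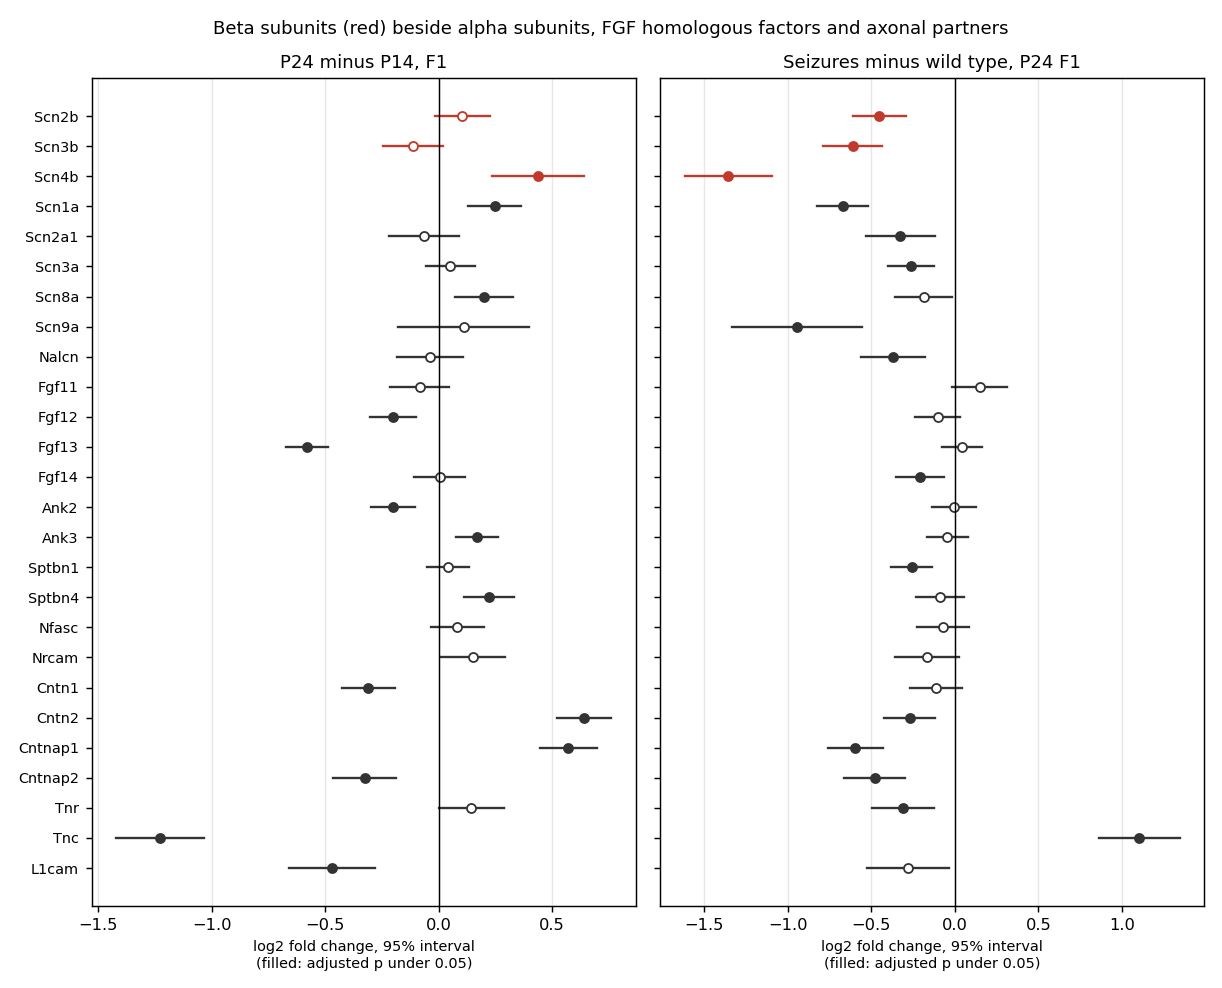
Log2 fold change with its 95% interval (horizontal axes) of the 3 beta subunit genes (red) and of tested alpha subunit, FGF homologous factor and axonal partner genes (black), by gene (vertical axis), for P24 minus P14 in F1 (left) and seizures minus wild type at P24 in F1 (right). Filled points have an edgeR adjusted p under 0.05. In the right panel Scn4b at -1.35 lies farthest to the left and Tnc at 1.10 farthest to the right.

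Genes with the most similar pattern were ranked by Pearson's r over the 9 group means of log2 CPM among the 10580 genes whose mean log2 CPM was 3 or more. These points share the seizure group, the lowest of the 9 for all 3 beta genes, and r is given as a description. Nearest to Scn2b were Gfra4 (r = 0.976), Kcng2 (0.976) and Tmem191c (0.975). Nearest to Scn3b were Lrrn3 (0.984), Dcaf17 (0.979) and Rgs12 (0.974), and nearest to Scn4b were Rbm24 (0.967), Cnot10 (0.967) and Ptprd (0.964). Lrrn3, for example, stood at 72.6 ± 3.71 CPM in P24 F1 wild type (SD, n = 3) and 46.5 ± 11.6 in the seizure group (n = 3), and Rbm24 at 21.5 ± 1.01 and 12.0 ± 2.56. Between the beta genes themselves r was 0.771 for Scn2b and Scn3b, 0.834 for Scn2b and Scn4b and 0.825 for Scn3b and Scn4b. The neighbours Scn2b and Scn4b thus had an r close to that of Scn4b with the distant Scn3b.

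Other genes near the beta subunit genes gave a local reference. Gramd1b, which starts 1615 bases beyond Scn3b and averaged 86.5 CPM, had a log2 fold change of -0.04 ± 0.08 in the seizure group against wild type (edgeR adjusted p = 0.761). Zfp202, on the other side of Scn3b, was at 0.09 ± 0.14 (adjusted p = 0.689), and Clmp, farther along, at -0.22 ± 0.12 (adjusted p = 0.190), so none of these 3 was called by edgeR where Scn3b was. Beyond Scn4b, Il10ra, an interleukin 10 receptor gene of immune cells, rose by 0.40 ± 0.15 against wild type (edgeR adjusted p = 0.0492). Against Scn1a+/- without seizures Il10ra was not called (log2 fold change 0.12, edgeR adjusted p = 0.707). The genes that flank the Scn2b and Scn4b pair on the other side, Mpzl2, Mpzl3 and Jaml, averaged 1.73 CPM or less and were not called, and neither was BC049352, beyond Scn4b, at 0.307 CPM. Tmprss4 beyond Scn4b, and Tmem225, Olfr986 and 1700110K17Rik near Scn3b, averaged 0.147 CPM or less and were not tested. Gm10684, whose annotated span overlaps that of Scn2b, averaged 0.0171 CPM and was not tested. The library kit does not mark strand, so reads from these 2 genes cannot be told apart where they overlap.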

How the data were processed

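The authors deposited raw gene counts, whole numbers for 24421 gene symbols in each of 25 libraries, with 0 rows that name no gene. Reads were aligned to mm10 and counted with tools that the submitters' processing notes list as CASAVA, TopHat2 2.1.0 and HTSeq 0.6.1p1. Which annotation and strand setting HTSeq used is not given in the sources used here. RNA came from flash-frozen hippocampi by TRIzol and was prepared, per the labels' protocols, with the TruSeq RNA Library Preparation Kit v2. The authors also deposited a table of normalized signal values, of which the 25 columns were compared with the counts (within 0.1% for counts of at least 50): 19 matched a library of their own group and 6, all P24 129S6, one of the other genotype.

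All 25 libraries were fitted in R 4.3.3 with edgeR 4.0.16 (limma 3.58.1) in 1 quasi-likelihood model over the 9 title groups, with TMM factors and filterByExpr (minimum count 10), which left 15912 genes (16 residual and 15.5 prior degrees of freedom, common biological coefficient of variation 7.57%). There were 12 comparisons and 3 interaction contrasts, adjusted over all tested genes by Benjamini-Hochberg. The standard error is the size of the log2 fold change over the square root of F. Exonic lengths came from GENCODE vM39, coordinates from RefSeq GRCm38.p6. The genes and lists were chosen with earlier results of these data known. Beside the 3 genes, the text names members of the lists (called ones first, by adjusted p), the 3 genes most alike in pattern and the 3 nearest genes on each side. Some list members that were not called were named after their values were seen. One alpha subunit gene is not reported here. The fit was tested on simulated counts with the same spread for all genes and groups. The seizure libraries varied more than the others, so that test cannot speak for the seizure comparisons. Alternatives were other size factors, DESeq2 1.42.0, no filter, fits of fewer libraries, the file-name genotype, and leaving out each library.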

Additional observations from a re-analysis of the deposited data

How the results depend on the processing

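The 3 genes in 12 comparisons and 3 interaction contrasts gave 45 log2 fold changes. Over 264 refits with another setting, 241 kept their direction and their side of the threshold, and over 396 refits that left out 1 library, 371 did. Each call against the seizure group held in every leave-one-out refit. Where a refit left 1 library in a group, that library was assumed to vary like the other groups. Signs turned only for values that were not called. With upper-quartile factors Scn2b by genotype in P14 129S6 was -0.00305, and Scn4b by genotype in P14 F1 was -0.00117, or -0.00109 without the filter. Scn2b by strain at P24 was 0.00233 with upper-quartile factors, 0.00114 without the filter, 0.00107 without the seizure libraries and 0.00134 with only the groups compared. The file-name genotype in P24 129S6 gave -0.0534 for Scn2b, -0.0414 for Scn3b and -0.0243 for Scn4b.

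Without the seizure libraries 6 more values were called by edgeR: Scn4b by strain at P14 (-0.28) and P24 (-0.23), Scn3b by strain at P24 (-0.17), Scn2b (0.11) and Scn3b (-0.11) by age in F1, and Scn3b by age in F1 Scn1a+/- (-0.18, adjusted p = 0.0191). With only the groups compared, the falls of Scn2b (-0.48) and Scn3b (-0.53) from Scn1a+/- without to with seizures were not called. In such fits Scn2b (0.12) and Scn4b (-0.28) by strain at P14, Scn3b (-0.16) and Scn4b (-0.23) by strain at P24, and Scn3b by age in F1 (-0.11) were. The cause was not tested.

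Leaving out 1 library gave ranges that crossed 0 or the threshold for 12 values. By genotype they were -0.0366 to 0.0626 for Scn2b and -0.0223 to 0.129 for Scn3b in P14 129S6, -0.0530 to 0.0495 for Scn4b in P14 F1, -0.10 to 0.15 for Scn2b and -0.18 to 0.0179 for Scn3b in P24 F1, and -0.0461 to 0.12 for Scn4b in P24 129S6. By strain they were -0.0193 to 0.0564 for Scn3b at P14 and -0.0613 to 0.0601 for Scn2b at P24. By age in F1 Scn2b ran from 0.0440 to 0.17. The genotype difference at P24 minus P14 in F1 ran from -0.0713 to 0.17 for Scn2b. The genotype difference in F1 minus 129S6 ran from -0.0850 to 0.0138 for Scn2b and from -0.0729 to 0.0784 for Scn3b.

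Counts of called genes under the same settings were added after seeing the data. With only the groups compared they were 1615 for seizures against wild type (3579 in the fit of all libraries), 633 against Scn1a+/- without seizures (2502), 2613 against P14 (4869), 1051 by strain at P14 (588) and 1950 at P24 (1008). Without the seizure libraries they were 991 and 2104 by strain, 200 by genotype in P24 F1 (0) and 42 for the strain difference in age change (1). Without the filter genotype called 4 genes in P14 129S6, 9 in P24 F1 and 3 in P24 129S6. Without P24 F1 Scn1a+/- replicate 2 the counts were 1519 for seizures against Scn1a+/- without, 423 by strain at P24 and 1908 by age in F1 Scn1a+/- (3468), and without P14 129S6 wild-type replicate 2 the count by strain at P14 was 380. No paired analysis was possible because the numbers in the titles run once through all libraries and are not shared between groups. Scn4b had as few as 111 counts in a library, which limits the precision of its small differences.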
